A study of Sus scrofa with 36 samples.

Results

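The genes described here encode the translation initiation and elongation factors, the proteins that bring the ribosome to the start codon of an mRNA and then move it along the coding sequence. They were taken as every gene whose symbol begins with EIF1 to EIF6, EEF1 or EEF2, without the EIF2 kinases. The ribosome recycling factor ABCE1, which the study placed in a module with EIF4A1 on these samples, was added, and 36 of the 12253 genes in the deposited table met this rule. A further 18 genes with such symbols in the gene name table were not analysed here, among them EEF1A2, EIF2S1, EIF3B, EIF4B and EIF4EBP2. Gene names were found for 8320 of the 12253 identifiers, so factors among the other 3933 rows may have been missed.

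RNA-Seq was performed on subcutaneous adipose tissue of 36 pigs of an F2 intercross founded on Göttingen Minipig boars and sows of the Duroc breed used in meat production. The pigs were selected by the Obesity Index, which combines the predicted genetic values of a pig for fatness traits, and formed 12 lean, 12 intermediate and 12 obese animals, with no treatment in any group. The lean group held 7 males and 5 females and each of the other groups 6 and 6. The pigs were slaughtered at a similar weight and hence at different ages, lean pigs being the oldest, so index group and age cannot be told apart in these data. Full sibs were admitted to a group up to a set number, and since the sources used here do not give which pigs were sibs, all tests and permutations treat the pigs as independent.

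The recovered read total ranged from 8735839 to 11755925 per pig with a median of 10496910, and the smallest count in any column was 6 or 7 reads. Expression levels are given as normalized counts, obtained by dividing the recovered reads of a pig by its size factor. These counts are not corrected for transcript length, so they compare pigs for a given gene and not the levels of different genes. In RefSeq's Sscrofa11.1, 8 of the factors overlap another gene (EIF1B, EIF2B2, EIF2B3, EIF2S2, EIF3G, EIF4A2, EIF4E3 and EIF5B). The study reported uniquely mapped reads per sample, but not how reads shared by paralogues or pseudogenes were treated in counting. Whether strand was used in counting was not given in the sources used here. The counts of the 8 overlapping factors and of close paralogues are uncertain to that extent. The 6 measured adipocyte markers of 9 had summed normalized counts of 33042 to 108070 per pig. Every gene in the table had at least 6 reads in each pig, so their presence was set by the filter. Of 10 skeletal muscle markers only DES was measured, at 29.7 to 1410 normalized counts. The other markers may be among the rows without a gene name or may have been filtered out. Their absence therefore does not show how much muscle the samples held. In whole tissue, fewer cells of a type and less RNA per cell cannot be told apart.

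Translation initiation begins when EIF2, bound to GTP and the initiator tRNA, joins the small ribosomal subunit with EIF1, EIF3 and EIF5, while the EIF4F complex of the cap-binding protein EIF4E, the scaffold EIF4G and the RNA helicase EIF4A recruits the mRNA. EIF2B recharges EIF2 with GTP, EIF5B joins the large subunit, and the EEF1 and EEF2 factors deliver aminoacyl-tRNA and translocate the ribosome. In adipose tissue as elsewhere, insulin acts through MTOR on this machinery, mainly by phosphorylation of EIF4E-binding proteins and of the kinases around them, which mRNA levels do not show.

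The first question was whether these factors differed between obese and lean pigs. None of the 36 was called at a Benjamini-Hochberg (BH) adjusted p of 0.05 over all genes (limma, with group and sex as terms), where 0.0408% of all genes, 5 in number, were called. Over the alternative fits described below, the number of all genes called ranged from 1 to 292, while that of factors stayed at 0. At an unadjusted p under 0.05 there were 4 of 36 factors, against 14.7% of all genes. Of these EIF4G1, EIF4G3 and EIF5B were higher and EEF1D was lower in obese pigs. With voom weights on the recovered reads, limma again called 0 factors, and 5 had an unadjusted p under 0.05. The shares of all genes given here and below belong to the fits without these weights. The median log2 difference of the factors was -0.01, the same as the median of -0.01 over all genes, and 17 of the 36 differences were above 0.

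The intervals of these differences were narrow. For all 36 factors the 95% interval of the obese minus lean difference lay within a 1.5-fold change in either direction, which was true of 73.2% of all genes, and for 19 factors it lay within 1.2-fold, against 20.9% of all genes. The outermost bounds were -0.36, for EIF2B3, and 0.43, for EIF4G1, on the log2 scale. These intervals hold gene by gene and not for all genes at once. The intervals of intermediate against lean and of obese against intermediate pigs also lay within 1.5-fold for all 36 factors, against 73.7% and 78.2% of all genes.

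Of the measured cell type markers 0 were called by limma in obese against lean pigs, where 0.0408% of all genes were. An unadjusted p under 0.05 was found for 14.7% of all genes. The levels of the markers are given by list. The summed macrophage markers, 5 of 9 of which were measured, had medians of 2307, 5185 and 6080 counts in the lean, intermediate and obese pigs, within ranges of 1598 to 8419, 2219 to 8268 and 3625 to 9490. All 5 had a fitted obese minus lean log2 difference above 0, from 0.52 to 1.55, and 4 had an unadjusted p under 0.05. The 4 T and NK cell markers summed to medians of 237, 322 and 354 in the same order, within ranges of 134 to 382, 103 to 655 and 153 to 1724, and had a median log2 difference of 0.71, with 1 of 4 at an unadjusted p under 0.05. The ranges of the groups overlapped in both lists, although the lowest obese macrophage sum of 3625 was above the lean median of 2307. The 3 measured of 7 endothelial markers had fitted obese minus lean differences of -0.33 to -0.18, with 1 at an unadjusted p under 0.05, and summed to 8302 to 14896 in lean and 6724 to 11545 in obese pigs. The adipocyte markers had a median difference of 0.07 in a range of -0.23 to 0.74, with 2 of 6 above 0 at an unadjusted p under 0.05, and summed to 33042 to 88479 in lean and 54022 to 108070 in obese pigs. The 6 fibroblast and progenitor markers had differences of -0.18 to 0.38 and the 2 measured of 4 blood markers of 0.74 and 0.88, with 0 at an unadjusted p under 0.05 in either list. The blood markers summed to 186 to 16052 in lean and 460 to 18078 in obese pigs. Most of this came from HBB, at 175 to 15658 in lean and 439 to 17563 in obese pigs. DES, the only measured muscle marker, had a difference of -0.60, with an unadjusted p over 0.05. Its medians were 146 in lean and 96.2 in obese pigs, in ranges of 29.7 to 1410 and 45.1 to 952. The part of these markers in the group differences of the factors was not tested.

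**Figure D1:**
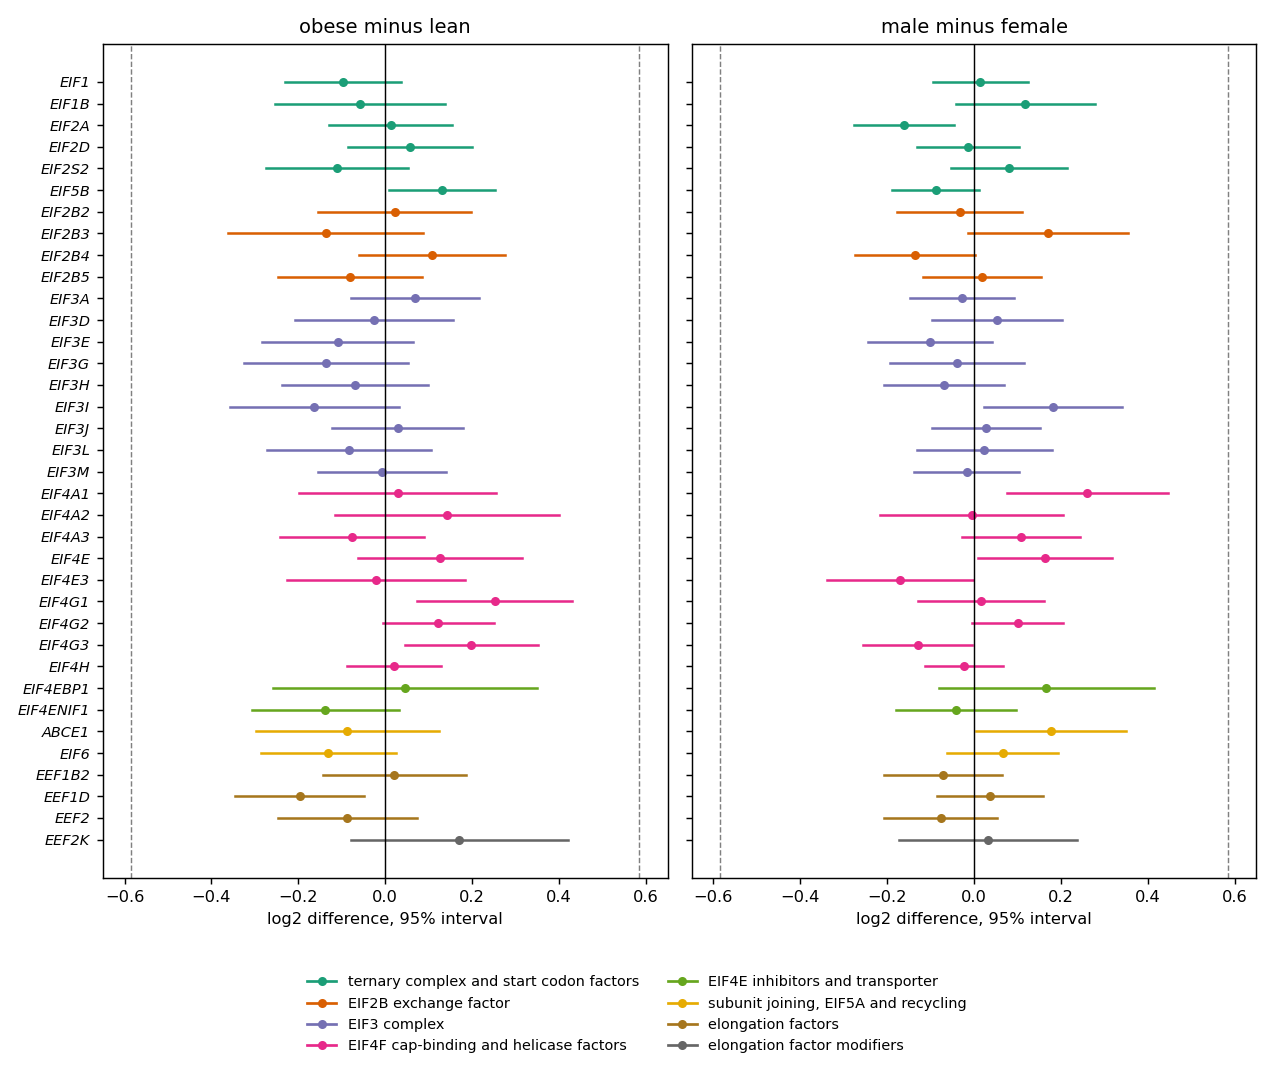
Log2 differences between obese and lean pigs (left) and between males and females (right) for the 36 factors, grouped by role. Points are limma estimates, lines are 95% intervals, and the dashed lines mark a 1.5-fold change; all intervals in both panels lie between them.

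The EIF4F group was taken as the cap-binding proteins, scaffolds and helicases with their relatives, including EIF4A3 and EIF4H, which are not subunits of the complex. Of its 12 genes, 9 were measured, 7 of the 9 fitted obese minus lean differences were above and 2 below 0, and 0 were called. Here and in the other roles the signs are those of the log2 differences fitted with sex as a term, which near 0 can differ from the order of the group means of the counts. EIF4G1 (ENSSSCG00000030255), the main scaffold that holds the cap-binding protein and the helicase together, had 3705 normalized counts in the lowest, 4562 in the median and 6080 in the highest lean pig. The corresponding values were 4117, 5024 and 6193 in intermediate and 4707, 5485 and 7053 in obese pigs. The groups overlapped, but each of the 12 obese pigs exceeded the lean median and 3 were above every lean pig. The means were 4667 ± 817, 5119 ± 679 and 5582 ± 818 in the 3 groups, in the same order (SD, n = 12 each). The obese minus lean log2 difference was 0.25 (SE 0.09, limma adjusted p = 0.154), a 1.19-fold change. This was the lowest p of the 36 factors. Counts of obese pigs against the lean median or range, here and for EIF4G3, EIF5B and EEF1D, describe factors named by their low p. They rest on the same values as that p, and the share of all genes with such counts was not computed.

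EIF4G3 (ENSSSCG00000003512), a paralogue of EIF4G1 with the same scaffold role, followed the same order of group means. Its counts were 920 to 1475 in lean pigs with a median of 1213, 1110 to 1687 in intermediate pigs with a median of 1277, and 1055 to 1618 in obese pigs with a median of 1379. Of the obese pigs, 10 of 12 were above the lean median and 4 were above every lean pig. The log2 difference was 0.20 (SE 0.08, limma adjusted p = 0.196). EIF4G2, the family member that lacks the EIF4E binding site, had means of 9915 ± 1332 in lean and 10794 ± 1033 in obese pigs (SD, n = 12 each), with a difference of 0.12 (SE 0.06, limma adjusted p = 0.365). The 3 scaffold genes were thus all higher in the obese group mean, with fitted changes of 1.09- to 1.19-fold, and not one of them passed the test.

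The partners of the scaffold showed smaller differences relative to their spread. EIF4A1 (ENSSSCG00000017957), the main helicase of EIF4F and a gene that the study discussed, had 1188 to 1993 normalized counts in lean pigs with a median of 1525. It had 1017 to 2235 in intermediate pigs with a median of 1529 and 1089 to 2535 in obese pigs with a median of 1579. The lean range lay inside the obese range, and the log2 difference was 0.03 (SE 0.11, limma adjusted p = 0.941). The paralogue EIF4A2 had 4416 to 11988 counts in lean and 7613 to 10929 in obese pigs, with a difference of 0.14 (SE 0.13) that was 0.06 without lean replicate 6. The cap-binding protein EIF4E was at 751 ± 127 in lean and 819 ± 145 in obese pigs (SD, n = 12 each). EIF4E3, a divergent cap-binding relative, was at 223 ± 39.4 and 224 ± 40.6. EIF4H, which stimulates the helicase, was at 4343 ± 273 and 4457 ± 340, and EIF4A3, the helicase of the exon junction complex rather than of initiation itself, was at 492 ± 49.8 and 473 ± 84.0.

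**Figure D2:**
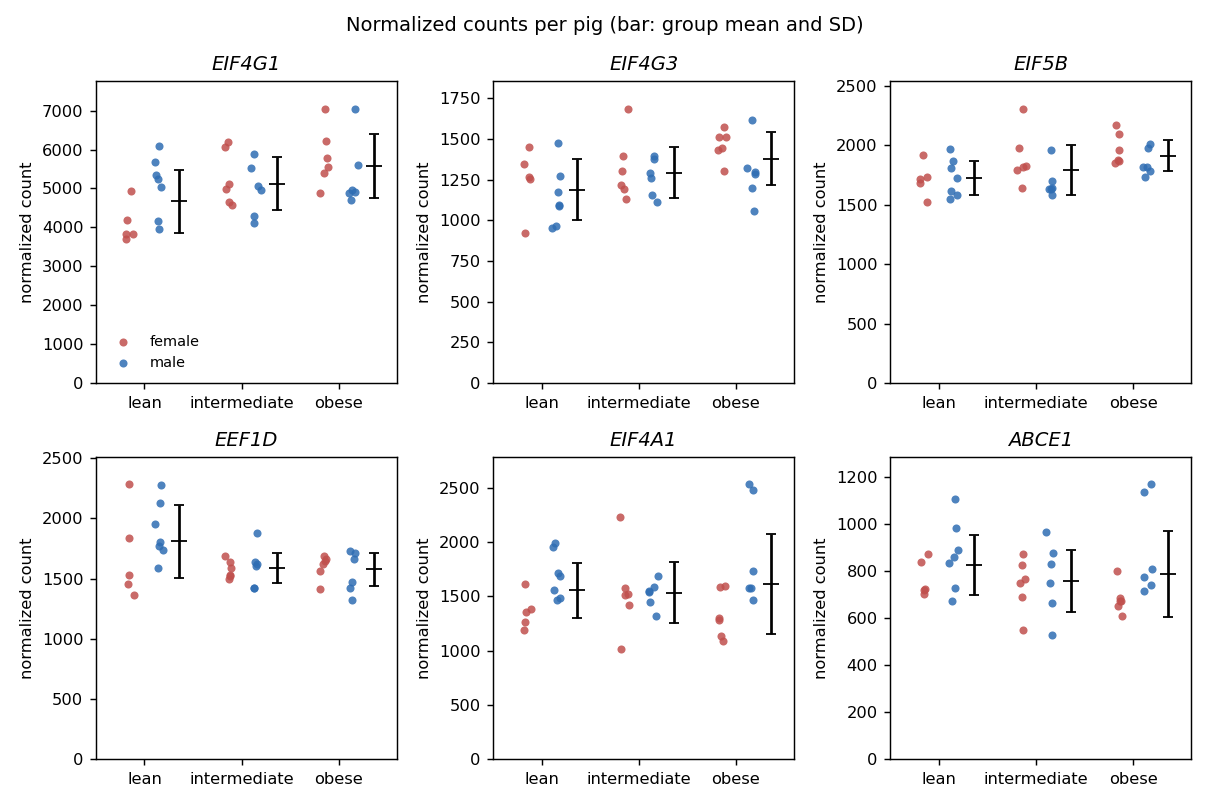
Normalized counts per pig of 6 factors in the lean, intermediate and obese groups, females in red and males in blue, with the group mean and SD (n = 12) as a black bar; the axes start at 0. EIF4G1, EIF4G3 and EIF5B have higher means and EEF1D a lower mean in obese than in lean pigs, with overlapping groups, and 2 obese males have the highest counts of both EIF4A1 and ABCE1.

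The proteins that restrain or carry EIF4E were represented by 2 of 4 genes. EIF4EBP1, the inhibitor that MTOR inactivates, ranged from 242 to 665 counts in lean pigs and from 325 to 557 in obese pigs, and its difference of 0.05 (SE 0.15) had the widest interval of the 36 factors. EIF4ENIF1, which transports EIF4E into the nucleus, was at 427 ± 42.4 in lean and 394 ± 56.3 in obese pigs (SD, n = 12 each), a log2 difference of -0.14 (SE 0.08, limma adjusted p = 0.452).

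The factors of the ternary complex and start codon were represented by 6 of 12 genes, of which 3 had a fitted difference above and 3 below 0 in obese against lean pigs, with 0 called. EIF5B (ENSSSCG00000008180), the GTPase that joins the large ribosomal subunit, had 1519 counts in the lowest, 1721 in the median and 1971 in the highest lean pig, against 1736, 1870 and 2169 in obese pigs. Every obese pig was above the lean median and 4 were above every lean pig. Its difference of 0.13 (SE 0.06, limma adjusted p = 0.302) was small, but its spread between pigs was among the smallest of the factors. In RefSeq it overlaps REV1 and a long non-coding RNA gene. EIF1, which controls the fidelity of start codon selection, was at 4179 ± 395, 3813 ± 418 and 3932 ± 233 in lean, intermediate and obese pigs (SD, n = 12 each). The difference of EIF1 was -0.10 (SE 0.07) in obese and -0.15 (SE 0.07, limma adjusted p = 0.364) in intermediate against lean pigs. The differences of its paralogue EIF1B, of EIF2S2, the beta subunit of EIF2, and of the alternative initiator tRNA carriers EIF2A and EIF2D lay between -0.11 and 0.06 in obese against lean pigs. For EIF1B, at -0.06, the difference was -0.14 without obese replicate 4 and -0.02 without obese replicate 10.

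The exchange factor EIF2B is a complex of 5 different subunits, and 4 of them were measured. EIF2B5, the catalytic subunit, was at 521 ± 57.7, 503 ± 52.6 and 499 ± 71.4 in lean, intermediate and obese pigs (SD, n = 12 each). EIF2B3 was at 255 ± 59.7, 232 ± 40.7 and 232 ± 52.7 in the same order. EIF2B4 was at 277 ± 44.3 in lean and 302 ± 35.5 in obese pigs and EIF2B2 at 356 ± 50.3 and 365 ± 42.2. The subunits therefore did not differ in 1 direction, with 2 differences above and 2 below 0 and a range of -0.14 to 0.11.

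EIF3 is the large scaffold on the small ribosomal subunit, and 9 of 14 listed genes were measured. In obese against lean pigs, 7 of the 9 fitted differences were below and 2 above 0, with a median log2 difference of -0.07 and 0 called. The furthest from 0 were EIF3I, at 672 ± 147 in lean and 594 ± 87.1 in obese pigs (SD, n = 12 each), with a difference of -0.16 (SE 0.10, limma adjusted p = 0.437), which was -0.10 without lean replicate 7, and EIF3G, at 343 ± 51.4 and 316 ± 52.9, with a difference of -0.14 (SE 0.09, limma adjusted p = 0.513). EIF3A, the largest subunit, was at 3920.5 ± 371 and 4164 ± 460, with a difference of 0.07 (SE 0.07). EIF3M had a difference of -0.01 (SE 0.07).

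Of the elongation factors, 3 of 7 were measured. EEF1D (ENSSSCG00000006954), a subunit of the exchange complex that recharges EEF1A with GTP, had 1367 counts in the lowest, 1786 in the median and 2285 in the highest lean pig. It had 1419, 1595 and 1882 in intermediate and 1320, 1635 and 1733 in obese pigs. Not one of the 12 obese pigs exceeded the lean median, whereas 1 was below every lean pig. The lean pigs were more variable, with a mean of 1810 ± 305 against 1587 ± 126 in intermediate and 1577 ± 137 in obese pigs (SD, n = 12 each). The log2 difference was -0.20 (SE 0.07, limma adjusted p = 0.188) in obese and -0.19 (SE 0.07, limma adjusted p = 0.309) in intermediate against lean pigs, and both comparisons share the lean pigs. EEF1B2, another subunit of the same exchange complex, had a difference of 0.02 (SE 0.08) in obese against lean pigs. EEF2, the translocase, was at 33426 ± 3450 in lean and 31969 ± 4052 in obese pigs, a difference of -0.09 (SE 0.08). Its kinase EEF2K, which slows elongation and was the only measured gene of 6 elongation factor modifiers, was at 750.0 ± 209 and 841 ± 171, a difference of 0.17 (SE 0.12), or 0.27 without lean replicate 1.

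ABCE1 (ENSSSCG00000009043), the ATPase that splits ribosomes after termination, had 672 to 1105 counts in lean pigs with a median of 836, 529 to 968 in intermediate pigs with a median of 758 and 609 to 1169 in obese pigs with a median of 728. The obese group extended beyond the lean range on both sides, with 2 pigs above and 3 below every lean pig, and the difference was -0.09 (SE 0.10, limma adjusted p = 0.748). EIF6, which keeps the large subunit from joining too early, was at 735 ± 104 in lean and 671 ± 56.8 in obese pigs (SD, n = 12 each), a difference of -0.13 (SE 0.08, limma adjusted p = 0.437).

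The intermediate pigs gave no calls among the factors either. Against lean pigs, limma called 0 factors and 0% of all genes, and 2 factors, EEF1D and EIF1, had an unadjusted p under 0.05, where 12.5% of all genes did. Obese against intermediate pigs gave 0 calls among the factors and 0% of all genes, and 0 factors with an unadjusted p under 0.05 against 4.28% of all genes. In that comparison the lowest p values belonged to EIF2D, with a difference of 0.14 (SE 0.07), and EIF4A2, with 0.24 (SE 0.13), both with a limma adjusted p of 0.989. In a linear trend over the 3 groups, with 0.0245% of all genes called, 0 factors were called and 4 had an unadjusted p under 0.05, against 14.5% of all genes. They were again EIF4G1, EIF4G3, EEF1D and EIF5B, with slopes of 0.13 (SE 0.04), 0.10 (SE 0.04), -0.10 (SE 0.04) and 0.07 (SE 0.03) log2 units per group step, in a fit that uses the same pigs. With limma and voom weights on the recovered reads these comparisons also had 0 factors called, and 2, 1 and 5 with an unadjusted p under 0.05.

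Males and females were compared in the same fit, since sex was a term of the model. Between the sexes 2.19% of all genes were called and 0 of the 36 factors, and 7 factors had an unadjusted p under 0.05, as did 18.3% of all genes. With voom weights these numbers were again 0 and 7. EIF4A1 had the lowest p. In the 17 females it had 1017 counts in the lowest, 1379 in the median and 2235 in the highest pig, and in the 19 males 1314, 1580 and 2535. The ranges overlapped widely, although the male median was above the female median. The male minus female log2 difference was 0.26 (SE 0.09, limma adjusted p = 0.117).

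Within the groups, the male and female means of EIF4A1 were 1696 ± 211 (SD, n = 7) and 1361 ± 159 (SD, n = 5) in lean, 1522 ± 128 and 1546 ± 393 (SD, n = 6 each) in intermediate, and 1896 ± 483 and 1332 ± 216 (SD, n = 6 each) in obese pigs. One intermediate female had 2235 counts, the highest of all females, and 2 obese males had 2484 and 2535, the highest of all pigs. The obese minus lean difference did not pass the test of a difference between the sexes (interaction 0.25, SE 0.21, limma adjusted p = 0.623).

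EIF2A was the factor with the lowest p in the other direction, lower in males, with a difference of -0.16 (SE 0.06, limma adjusted p = 0.119). Its female and male means were 772 ± 52.4 (SD, n = 5) and 680 ± 82.5 (SD, n = 7) in lean, 749 ± 87.4 and 691 ± 35.1 (SD, n = 6 each) in intermediate, and 779 ± 86.9 and 697 ± 57.7 (SD, n = 6 each) in obese pigs, so the male mean was lower in each group. The other factors with an unadjusted p under 0.05 were EIF3I (0.18, SE 0.08), EIF4E (0.16, SE 0.08) and ABCE1 (0.18, SE 0.08), which were higher in males, and EIF4G3 (-0.13, SE 0.06) and EIF4E3 (-0.17, SE 0.08), which were lower. Their adjusted p values in limma were between 0.208 and 0.267. Of the 7, 4 belonged to the EIF4F group, whose median difference was 0.02. All 36 intervals lay within 1.5-fold, against 80.5% of all genes, and 26 within 1.2-fold, against 32.4%.

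Of the measured cell type markers, 4 were called between males and females, against 2.19% of all genes. An unadjusted p under 0.05 was found for 18.3% of all genes. The 6 measured of 8 fibroblast and progenitor markers summed to a median of 454830 counts in males, in a range of 252030 to 791740, and 275260 in females, in a range of 147410 to 586350. COL3A1 alone had means of 326740 in males and 223810 in females, so the sum mostly follows this gene. COL1A2 and DCN were called as higher in males. The 6 measured adipocyte markers summed to medians of 65320 and 85664, in ranges of 33042 to 77673 and 41547 to 108070, and LIPE and PNPLA2 were called as lower in males. The calls of COL1A2, DCN and LIPE held in all 41 alternatives, while that of PNPLA2 was lost in 30 of 41 (limma adjusted p 0.0057 to 0.0888). The 4 measured of 8 T and NK cell markers summed to medians of 232 and 373, in ranges of 103 to 471 and 177 to 1724, with 0 called and 4 of 4 with a difference below 0 at an unadjusted p under 0.05. The macrophage markers summed to medians of 3625 and 5531, in ranges of 1598 to 8268 and 2219 to 9490, and all 5 had a male minus female log2 difference below 0, from -0.74 to -0.18, with 0 called and 1 at an unadjusted p under 0.05. The 2 blood markers had a median difference of -0.76, and the 3 endothelial markers had differences of -0.14 to 0.03, with 0 at an unadjusted p under 0.05 in either list. The muscle marker DES had a difference of -0.31, with an unadjusted p over 0.05. The part of these markers in the sex differences of the factors was not tested.

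Whether the obese minus lean difference itself differed between the sexes was tested as an interaction. Of the factors, 0 were called where 0.00816% of all genes, 1 gene, was, and 4 had an unadjusted p under 0.05 against 12.9% of all genes. With voom weights 0 were called and 2 had an unadjusted p under 0.05. EIF4A3 had the lowest p. In obese females it had 372 to 441 counts, with a median of 417, and in obese males 459 to 678, with a median of 517. These 6 females and 6 males did not overlap. EIF4A3 was picked by its p from these same values, and the share of all genes without such overlap was not computed. Lean females had 440 to 547 counts with a median of 466 and lean males 429 to 580 with a median of 488, and they did overlap. The obese minus lean difference was 0.12 (SE 0.10) in males and -0.30 (SE 0.11) in females, and the interaction was 0.43 (SE 0.15, limma adjusted p = 0.234).

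The estimates of EEF2K also had opposite signs in the sexes, with an obese minus lean difference of 0.39 (SE 0.16) in males and -0.10 (SE 0.17) in females and an interaction of 0.49 (SE 0.24, limma adjusted p = 0.377), which was 0.30 without lean replicate 1. Lean males had 510 to 903 counts with a median of 664, and obese males 675 to 1103 with a median of 919. Lean females ranged from 595 to 1286 with a median of 765 and obese females from 571 to 979 with a median of 797, so the groups of each sex overlapped. EIF4G1 had a difference of 0.44 (SE 0.12) in females and 0.10 (SE 0.11) in males. Its female values were 3705 to 4938 with a median of 3844 in lean and 4879 to 7053 with a median of 5671 in obese pigs, so that lean and obese females overlapped at the edges of their ranges. EIF4ENIF1 had differences of -0.33 (SE 0.12) in females and 0.03 (SE 0.11) in males. The interactions of EIF4G1 and EIF4ENIF1 were -0.34 (SE 0.17, limma adjusted p = 0.381) and 0.36 (SE 0.16, limma adjusted p = 0.332). Here the intervals were wide, and 26 of the 36 factors had an interaction within 1.5-fold, against 26.7% of all genes.

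**Figure D3:**
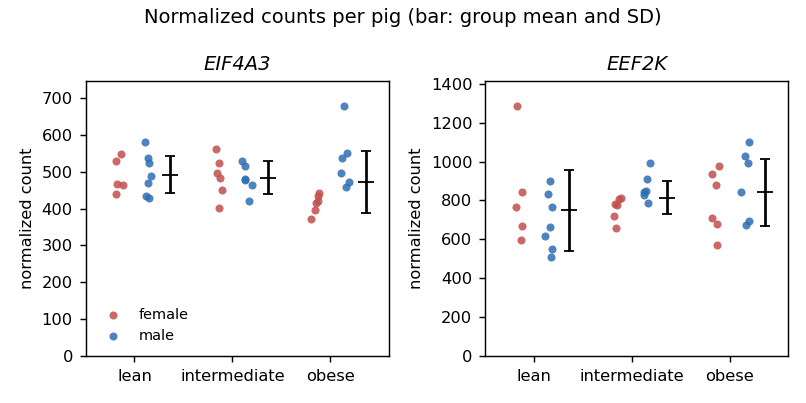
Normalized counts per pig of EIF4A3 and EEF2K by group, females in red and males in blue, with the group mean and SD (n = 12) as a black bar and axes from 0. The obese females of EIF4A3, at 372 to 441 counts, lie below the obese males, at 459 to 678, while the sexes overlap in the other groups. EIF4A3 is shown for its lowest interaction p of the factors, which was not called.

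The spread between pigs was small for most factors. The residual SD after group and sex ranged from 0.11 to 0.38 on the log2 scale with a median of 0.20, whereas it had a median of 0.33 over all genes and of 0.26 over the 6321 genes within the same range of mean level. Of the 36 factors, 35 were below the first of these medians, 31 were below the second, and 27 were in the lowest 25% of all genes. The steadiest was EIF4H, with a residual SD of 0.11 and counts that differed 1.39-fold between the highest and the lowest of all 36 pigs. EIF4G2 and EIF5B followed with residual SDs of 0.13 each. EEF2 varied 1.53-fold.

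At the other end, 6 factors had a residual SD over 0.25. EIF4EBP1 was the most variable at 0.38, with a 2.90-fold range over all pigs, and it was the only factor above the median of all genes. EIF4A2 (0.31), EEF2K (0.31), EIF4A1 (0.28), EIF2B3 (0.27) and ABCE1 (0.26) followed. Both helicase paralogues of EIF4F, EIF4A1 and EIF4A2, were thus among the variable factors, while the third gene of that family, EIF4A3, had a residual SD of 0.19.

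**Figure D4:**
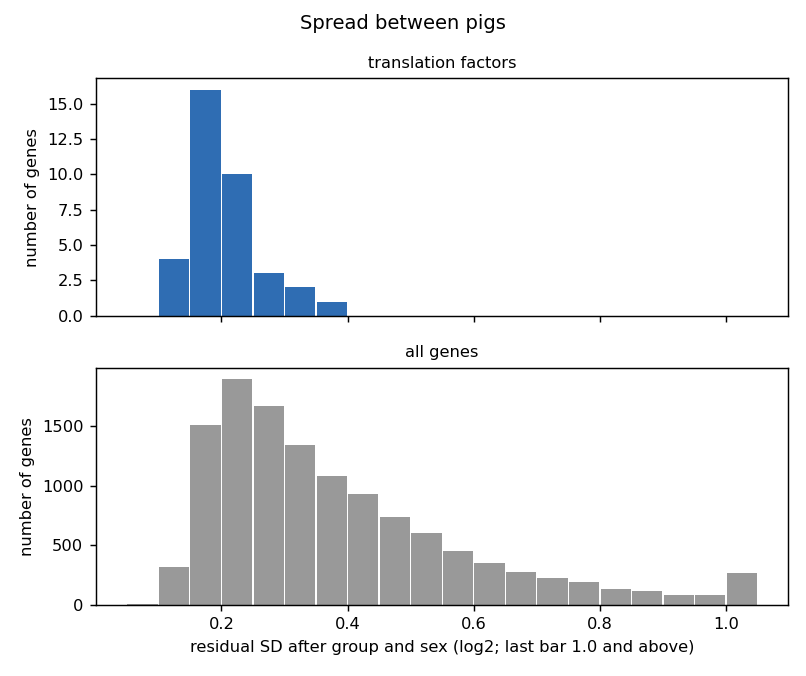
Number of genes by residual SD after group and sex, on the log2 scale in bins of 0.05, for the 36 factors (top) and all 12253 genes (bottom), with genes at 1.0 and above in the last bar. The factors lie between 0.11 and 0.38, with 26 of them between 0.15 and 0.25, and all genes have a tail to the right that the factors lack.

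The factors varied together across pigs to different degrees. Pearson's correlations were computed on the residuals after group and sex over the 36 pigs and are given as a description, since pairs share pigs, libraries and depth. The deposited values retain a part of the depth of each library, so each correlation is also given for values divided by the whole size factor. The median over all 630 pairs of factors was 0.26, or 0.14 with the whole size factor, against 0.05 and 0.0002 over 19999 pairs drawn from all genes. The median over the 36 pairs of EIF3 subunits was 0.41 (0.32 with the whole size factor). The elongation factors EEF1B2, EEF1D and EEF2 had a median of 0.54 (0.47) over 3 pairs, and the 36 pairs of genes of the EIF4F group 0.03 (-0.01).

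Within EIF3, the subunits L, G, M, H, D and E had median correlations with the other subunits of 0.58 to 0.69 (0.50 to 0.63 with the whole size factor). EIF3A was at 0.39 (0.29), and EIF3I and EIF3J were at 0.17 (0.04) and 0.07 (0.01). EIF3J is the loosely attached subunit of the complex, and whether this bears on its correlations was not tested. The pairs with the highest correlations joined EIF3 with elongation factors, as EIF3L with EEF2 at 0.86 (0.80) and EIF3E with EEF1B2 at 0.84 (0.81), or joined EIF3 subunits with each other, as EIF3G with EIF3H at 0.82 (0.80). The lowest correlation of all pairs was between EIF3L and the scaffold EIF4G3, at -0.51 (-0.66). Of the scaffold genes, EIF4G2 was at 0.50 (0.56) with EIF4G1 and at 0.43 (0.51) with EIF4G3, whereas EIF4G1 and EIF4G3 were at 0.22 (0.29) with each other.

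**Figure D5:**
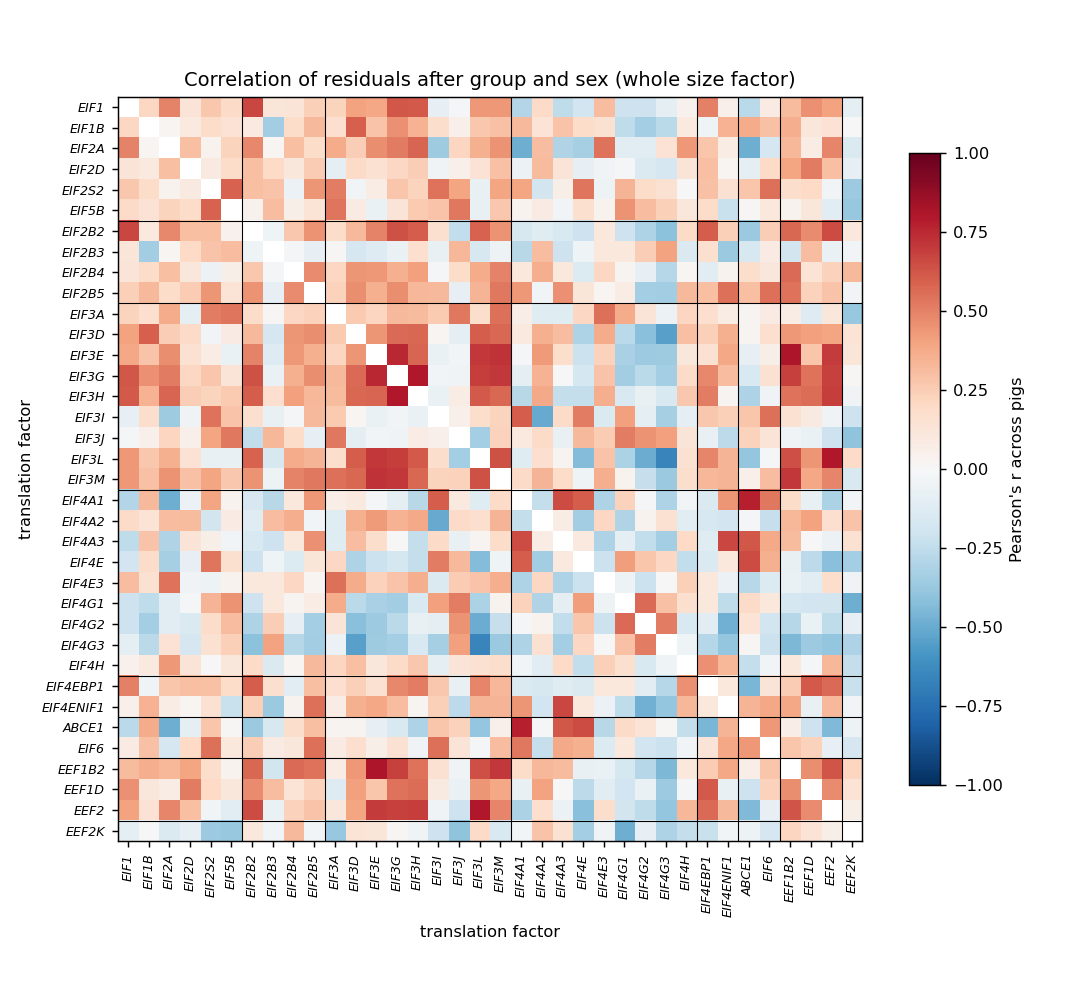
Pearson's correlations across 36 pigs between the residuals of the 36 factors after group and sex, from values divided by the whole size factor, with lines between the roles. A block of positive correlations joins most EIF3 subunits with EEF1B2 and EEF2. EIF4A1 and ABCE1 correlate positively with each other and with EIF4A3 and EIF4E, whereas EIF4A3 and EIF4E are at 0.10 with one another.

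Of the pairs, 3 were tested. EIF4A1 and ABCE1 had a Pearson's r of 0.79 and a Spearman's rho of 0.77 over 36 pigs (permutation p of 1e-05 for both, the smallest that 100000 permutations can give, BH p = 3e-05 over the 3 pairs). Without the 2 pigs farthest from the median of EIF4A1, r was 0.76, and with the whole size factor it was 0.78. The study placed both genes in its Lightyellow module on these same samples, so this correlation is not independent evidence. The pigs with the highest counts of EIF4A1, the 2 obese males with 2484 and 2535, were also highest for ABCE1, at 1137 and 1169. EIF4A1 and EIF4A2, in contrast, had an r of -0.17 (permutation p = 0.312) and a rho of -0.08 (permutation p = 0.661), and r was 0.08 without the 2 farthest pigs. EIF1 and EIF1B had an r of 0.37 and a rho of 0.42 (permutation BH p = 0.0402 and 0.0168), which with the whole size factor were 0.21 and 0.18 (permutation BH p = 0.226 and 0.449). The lane and litter of each pig were not given in the sources used here, so no correlation was computed within them.

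Genes that act on the factors were described from lists of their own. Of 13 EIF2 kinases and other genes of the integrated stress response, 8 were measured and 0 were called in obese against lean pigs, where 0.0408% of all genes were, with a median difference of -0.03 and 0 at an unadjusted p under 0.05. Of 16 genes of MTOR signalling, 13 were measured and 0 were called, with a median of 0.07, a range of -0.11 to 0.23 and 0 at an unadjusted p under 0.05. All 11 other helpers of initiation were measured and 0 were called, with a median of -0.01. Of these, 2 had an unadjusted p under 0.05, against 14.7% of all genes: DENR, at -0.15, and DHX29, at -0.16 on the log2 scale (limma adjusted p = 0.310 and 0.307), both named after their values were seen. Between the sexes, 0 of the 8, 1 of the 13 and 1 of the 11 were called, against 2.19% of all genes. MKNK2, a kinase that phosphorylates EIF4E, was lower in males at 747 ± 166 (SD, n = 19) against 1029 ± 315 (SD, n = 17) in females, a difference of -0.43 (SE 0.12, limma adjusted p = 0.0457). This call was lost in 19 of 41 alternatives, with adjusted p values of 0.0249 to 0.0836. DDX3X, an X-linked RNA helicase that assists initiation, was at 3199 ± 757 in males and 4170 ± 599 in females (SD, n = 19 and 17), a difference of -0.40 (SE 0.09, limma adjusted p = 0.0113), and was called in all 41 alternatives.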

How the data were processed

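RNA-Seq of subcutaneous adipose tissue from 36 pigs was analysed, with 1 deposited column per pig. The authors used STAR with the Sscrofa10.2 build for mapping of paired-end reads, HTSeq for gene counts, DESeq for size factors and voom in limma for normalization, and left out genes at 5 or fewer reads. The deposited table holds log2 values, and their steps showed that the authors divided the read count plus 0.5 by the size factor plus 1, so library depth is only partly removed. Whole reads were recovered for 99.9% of the values of the median pig, within 0.1 reads. The correction for gender of the methods is not in the deposited values. The libraries were spread over several lanes and groups could hold full sibs, but the lane and litter of each pig, and transcript lengths, were not given in the sources used here.

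Tests used limma 3.58.1 in R 4.3.3 on the deposited log2 values, with empirical Bayes moderation, an intensity trend, group and sex as terms, all 36 pigs, and BH correction over all 12253 genes. The recovered reads were used for the normalized counts, for correlations with the whole size factor and in 2 of the alternatives. Summaries and figures were made with numpy 2.4.6, pandas 2.3.3 and matplotlib 3.10.9 under Python 3.11.15. The fits were tested on simulated data. Symbols came from a table of Ensembl identifiers. The members, the role lists, the related lists and the markers were chosen with earlier results of these data known. Genes were named by rule: the lowest p in each comparison, the largest and smallest spread, the ends of each role by level, paralogue pairs, EIF4A1 and ABCE1, and called genes of related lists. The remaining factors in the text were named after their values were seen, to complete their roles or as ends of the range of correlations. Alternatives were no sex term, only the groups compared, no intensity trend, no genes in the lowest 25%, each pig's median subtracted, division by the complete size factor, weights from voom on recovered reads, and each pig left out.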

Additional observations from a re-analysis of the deposited data

How the results depend on the processing

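Leaving out the sex term, the third group, the intensity trend or the lowest 25% of genes, 2 other scalings, voom weights, or any 1 pig left 0 factors called in obese against lean, intermediate against lean, obese against intermediate, the trend and the interaction. Male against female ranged from 0 to 1 when 1 pig was left out: EIF4A1 was called without intermediate replicate 8 (0.30, limma adjusted p = 0.0410, range 0.0410 to 0.186 over 41 alternatives) and EIF2A without obese replicate 9 (-0.19, limma adjusted p = 0.0399, range 0.0399 to 0.187). Differences near 0 changed sign. EIF4A2 in males against females was 0.0082 with each pig's median subtracted, 0.0055 with the whole size factor and 0.0051 with voom weights, and -0.067 to 0.031 with 1 pig left out. With 1 pig left out, obese minus lean was -0.0069 to 0.051 for EIF2A, -0.028 to 0.078 for EIF4A1, -0.062 to 0.022 for EIF4E3, -0.028 to 0.11 for EIF4EBP1 and -0.00071 to 0.050 for EIF4H. Further from 0, obese minus lean was -0.14 for ABCE1 without obese replicate 6 and -0.13 without obese replicate 4, and -0.06 for EEF2 without obese replicate 9. For EIF2B3 it was -0.09 without lean replicate 7 or obese replicate 4. Among differences within 0.1 of 0, those of EIF1B (-0.14 without obese replicate 4, -0.04 to -0.02 without lean replicate 3 or obese replicate 7, 8 or 10), EIF2B5 (-0.13 without obese replicate 4, -0.05 without lean replicate 7 or obese replicate 9), EIF4A3 (-0.12 without obese replicate 4, -0.05 without lean replicate 1, -0.04 without obese replicate 9), EIF2D (0.03 without obese replicate 3, 0.09 without obese replicate 6) and EIF3A (0.04 without obese replicate 1, 0.05 without obese replicate 3) also moved by over 1.5 times and kept their sign. The cause was not tested. Factors with an unadjusted p under 0.05 numbered 3 to 7 in obese against lean and in the trend (7 without lean replicate 4), 1 to 4 in intermediate against lean, 0 to 2 in obese against intermediate, 2 to 10 in males against females (2 without lean replicate 12) and 1 to 4 in the interaction (1 without lean replicate 4 or obese replicate 4). Genes called among all genes ranged from 1 to 292 in obese against lean (292 without lean replicate 2, 204 without lean replicate 8), 1 to 274 in the trend, 0 to 6 in intermediate against lean, 0 to 33 in the interaction and 147 to 546 between the sexes (546 without lean replicate 1, 147 without obese replicate 1). In the 3 comparisons between groups and between the sexes the 1.5-fold interval held for all 36 factors under each alternative; it held for 23 to 30 in the interaction, and for 35 in males and 34 in females when obese and lean pigs were compared within a sex. No paired analysis was possible because the groups carry no shared replicate numbers in the labels.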

Other observations

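Factors outside cytosolic initiation and elongation were measured in the same libraries. Of 8 genes of termination and ribosome rescue, 7 were measured and limma called 0 in obese against lean pigs, and 2, GSPT2 and PELO, had an unadjusted p under 0.05, where 14.7% of all genes did. GSPT2, a paralogue of the release factor GTPase GSPT1, had 237 ± 46.1 normalized counts in the 12 lean pigs and 176 ± 38.7 in the 12 obese pigs (SD), a log2 difference of -0.43 (SE 0.13, limma adjusted p = 0.113). PELO, which rescues stalled ribosomes, had a difference of -0.20 (SE 0.09, limma adjusted p = 0.321).

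Of 9 mitochondrial translation factors, 7 were measured and 0 were called by limma in obese against lean pigs or between the sexes, with 0 and 3 at an unadjusted p under 0.05, against 14.7% and 18.3% of all genes. The 3 were higher in males. TUFM, the mitochondrial elongation factor that delivers tRNA, was at 888 ± 192 in males (SD, n = 19) and 724 ± 86.0 in females (SD, n = 17), a difference of 0.26 (SE 0.08, limma adjusted p = 0.0857). GFM1 and GFM2, the mitochondrial elongation and recycling factors of the G family, had differences of 0.25 (SE 0.09) and 0.41 (SE 0.13). GSPT2, PELO, TUFM, GFM1 and GFM2 were chosen after their values were seen.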
